A study of Mus musculus with 12 samples.

Results

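ERKO and wild-type mouse livers were compared after both had received PPT (propyl pyrazole triol), an agonist selective for oestrogen receptor alpha. The members of the comparison were all probe sets brighter than the 40th percentile of their own array on at least 2 of the study's 12 arrays, 19119 of 28815; that rule uses intensity alone. They represent 13987 genes when each symbol is taken by its brightest probe set, and counts below are of these genes unless probe sets are named. Differences are ERKO minus wild type, in log2 of intensity plus 16, and a gene was called at a limma adjusted p (Benjamini-Hochberg over the 19119 probe sets) under 0.05.

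The mice were 3 months old, of strain C57BL/6 and ovariectomized, so their own ovarian oestrogen was removed; they recovered for 1 week. Wild-type and ERKO (receptor alpha knockout) animals were then given 100 µg PPT, or 0.1 mL of the oil vehicle, by intraperitoneal injection on each of 3 days before whole livers were taken. The knockout's allele, and whether the receptor was lost in every cell type, are not given in the sources used here. Another line, MOER, which carries only the membrane pool of the receptor, was treated the same way and enters below through the estimate of spread and the ranges over all 12 arrays. Each array held RNA pooled from 3 animals and each group had 2 arrays. The labels say that the study was repeated once, without tying arrays to separate sets of animals, so p-values measure the spread between arrays, which may be partly technical. Every group mean below is of n = 2 arrays, and the number of arrays limits the precision: the median SE of a PPT difference was 0.12.

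Oestrogen receptor alpha is a ligand-activated transcription factor that binds oestrogen response elements and is tethered to other factors, and a membrane pool signals through kinases. In rodent liver it is known for lowering lipid synthesis, changing bile acid and lipoprotein handling and modifying sex-biased genes, which also follow the pituitary pattern of growth hormone. PPT is selective for this receptor, and the comparison asks how the genotypes differ while the agonist is given. Either genotype may change between oil and PPT. Mean Slc34a2 was 24.3 with oil and 8500 with PPT in wild type, and 22.6 and 27.4 in ERKO. Mean A1bg was 1042 and 2737 in wild type but 1882 and 57.5 in ERKO. Mean Slco1a1 was 285.5 and 445 in wild type and 316 and 3274 in ERKO. What changed the ERKO arrays was not tested.

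Arrays of a group agreed closely (Pearson r 0.994 to 0.996 across tested probe sets) except the ERKO oil pair, whose r was 0.981 and which differed by over 2-fold at 162 probe sets, against 2 to 21 in the other groups. The ERKO PPT arrays stood apart in transcripts not typical of liver. Summed over 12 skeletal muscle genes, their intensities were 18385 and 17352, against 788 and 734 in wild type with PPT and 627 to 853 over the other 10 arrays. Squamous and airway epithelial genes summed to 7868 and 7419 in ERKO with PPT and 3876 and 3743 in wild type with PPT, against 435 to 848 on the 8 remaining arrays. The tissue label was borne out by its defining markers. Albumin intensity was 20724 and 19515 in wild type and 19778 and 19311 in ERKO, both with PPT, and 14 hepatocyte genes summed to 97569 and 92554 and to 110011 and 112039. Genes bright in a single group had little weight in the totals: without probe sets dim in 5 of the 6 groups, a setting chosen after the data were seen, 5956 were called with PPT in place of 6133. That setting keeps muscle genes that are not dim elsewhere, such as Tnnc2, so it does not measure the weight of the muscle and epithelial transcripts. The muscle and epithelial transcripts accompany the ERKO differences with PPT described below, and their part in those was not tested; the ERKO oil arrays summed to 645 and 712 for muscle and 461 and 653 for epithelial genes.

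**Figure D1:**
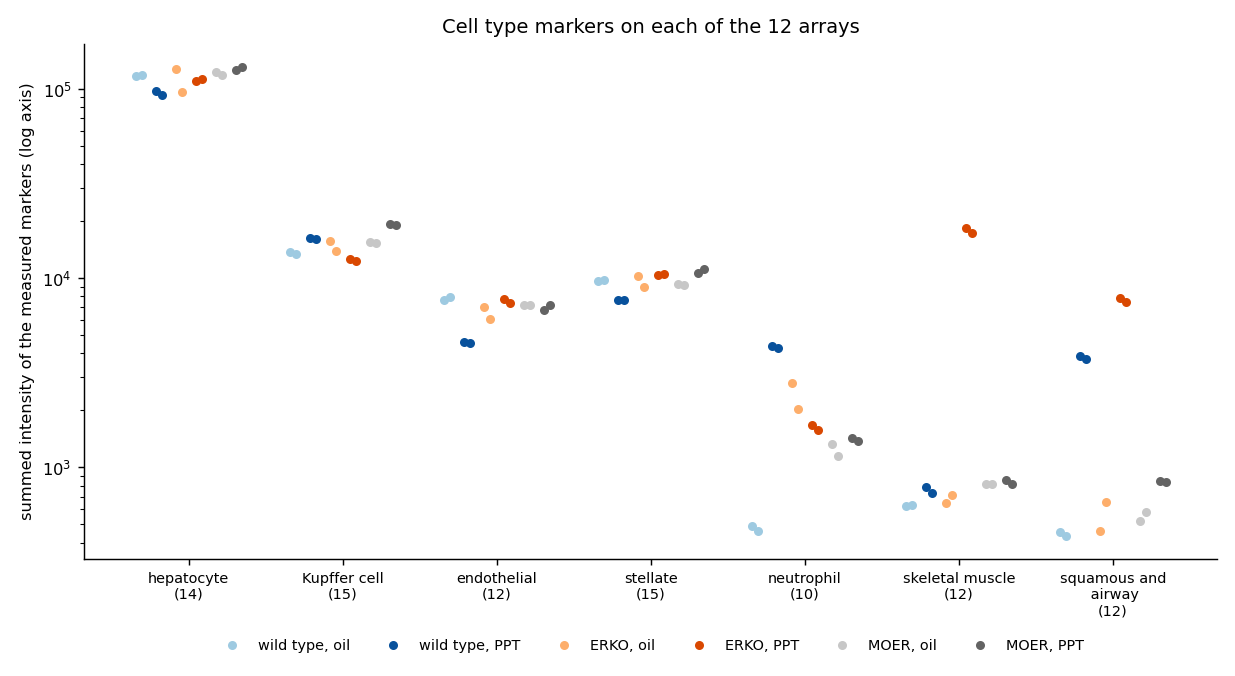
Summed intensity (log axis) of the measured markers of 7 cell type lists, 1 point for each of the 12 arrays. The 2 ERKO PPT arrays sit at 18385 and 17352 for skeletal muscle genes, where the other 10 lie between 627 and 853, while the hepatocyte sums stay between 92554 and 129519.7 on all 12.

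The receptor gene was lower in the knockout under both treatments. With PPT, Esr1 intensity was 309 and 325 in wild type and 145 and 162 in ERKO (log2 difference -0.97 ± 0.093 (SE), limma adjusted p = 1.74e-05). With oil it was 347 and 365 in wild type and 126 and 118 in ERKO, a log2 difference of -1.43 (limma adjusted p = 1.43e-05). The groups did not overlap, the ERKO arrays were above their own 40th percentile, and the deficit was smaller with PPT (difference of the differences 0.46, limma adjusted p = 0.0296). That last call was lost without either wild-type oil array, either wild-type PPT array or ERKO PPT replicate 2, where the limma adjusted p of Esr1 lay between 0.0671 and 0.118. The sources used here do not give where its probes lie relative to the deleted part of the gene.

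The genotypes differed at 6133 of 19119 probe sets with PPT (32.1% called), 2743 higher (14.3%) and 3390 lower (17.7%) in ERKO. At least 2-fold was reached by 1149 (6.01%), of which 561 (2.93%) were higher and 588 (3.08%) lower. At least 2-fold with oil was reached by 109 (0.57%: 0.361% higher, 0.209% lower), and an interaction of that size by 1290 (6.75%: 3.59% higher, 3.16% lower). Of the 13987 genes, 4800 were called (34.3%), 2045 higher (14.6%) and 2755 lower (19.7%), and the median difference over all genes was -0.0033. The 2 ERKO and 2 wild-type arrays did not overlap for 10118 genes (72.3%). Under oil, 957 probe sets (5.01%: 2.24% higher, 2.77% lower) and 732 genes (5.23%) were called, 328 genes higher (2.35%) and 404 lower (2.89%), with a median of -0.054 and no overlap between arrays for 6508 genes (46.5%). The genotype difference itself changed with PPT at 4266 probe sets (22.3%: 12% higher, 10.3% lower) and 3310 genes (23.7%), 1709 towards higher (12.2%) and 1601 towards lower values in ERKO (11.4%). Leaving out wild-type PPT replicate 2 reduced the PPT calls to 4007 probe sets and 3157 genes, and leaving out ERKO oil replicate 1 raised the interaction calls to 6735 and 5036; the oil calls ranged from 230 to 827 probe sets without 1 array, except for 6329 without ERKO oil replicate 1.

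Of the 4800 genes called with PPT, 4353 (90.7%) were not called with oil, and the difference between treatments was itself called for 2585 of these (59.4%). Another 295 were called the same way under both, which is 6.15% of the PPT calls and 40.3% of the oil calls; 152 were called opposite ways, 3.17% and 20.8%. The PPT and oil differences share no arrays, only the estimate of spread, and across 13987 genes, which are not independent, they correlated at r = 0.191. The oil counts turned on 1 array. Without ERKO oil replicate 1, 4776 genes were called with oil, 1599 the same way and 862 the opposite way as with PPT, and the share of PPT calls not called with oil was 60.1%; leaving out any other of the 8 arrays gave 162 to 668, 85 to 293, 32 to 183 and 92.3% to 97.3%. The fewest oil calls, 162 and 164 genes, came without wild-type oil replicate 1 or 2, and 421 to 459 came without a PPT array.

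**Figure D2:**
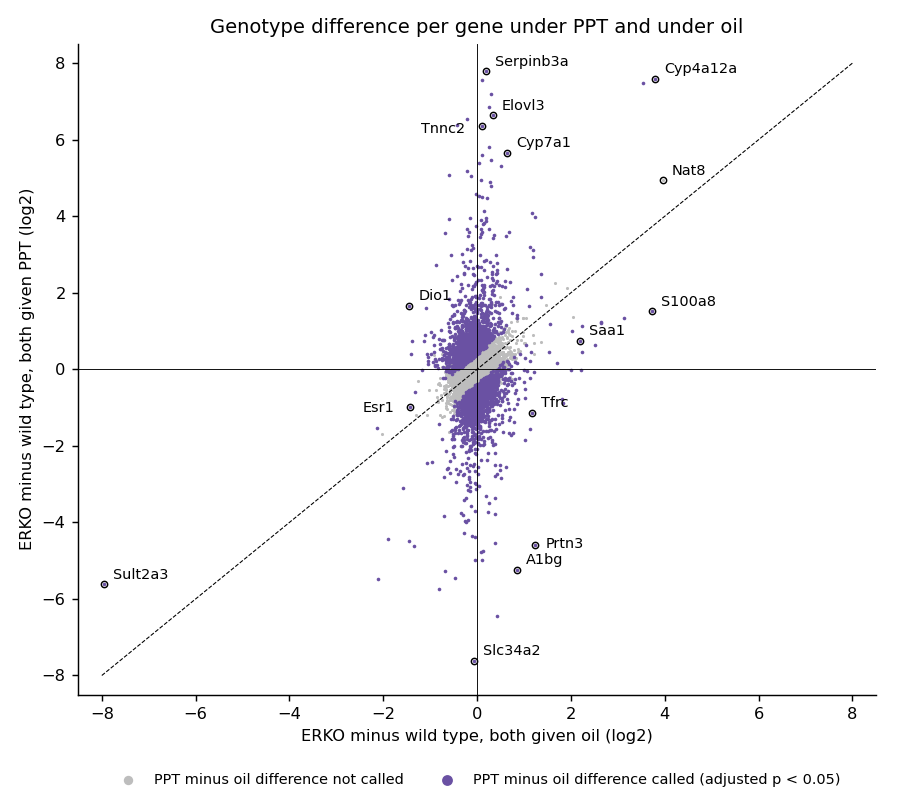
Each point is 1 of 13987 genes, with the ERKO minus wild-type log2 difference under oil on the horizontal and under PPT on the vertical axis; purple marks the 3310 genes whose difference between treatments was called and the dashed line marks equality. The points spread further along the PPT axis than along the oil axis, with Slc34a2, Serpinb3a and Tnnc2 far out under PPT and near 0 under oil.

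The largest deficits in ERKO were in a phosphate transporter, steroid-handling enzymes and sulfotransferases. Slc34a2, a sodium-phosphate cotransporter, had an intensity of 8669 and 8332 in wild type with PPT and 29.2 and 25.6 in ERKO (log2 difference -7.62 ± 0.15 (SE), limma adjusted p = 1.63e-10). Both ERKO arrays lay under their own 40th percentile, so the deficit is given as at least 144-fold: here and below, such a bound sets the mean of the brighter group against the dimmer arrays taken as no less than that percentile, 54 to 59.5 on the 4 PPT arrays, while the log2 difference of such a gene depends on the pseudocount. With oil, Slc34a2 was 22.8 and 25.9 in wild type and 21.8 and 23.5 in ERKO, so the gene was bright in wild type with PPT and low in the other 3 groups. Akr1c18, which inactivates progesterone, followed the same order, with 3629 and 3236 in wild type and 54.9 and 72.4 in ERKO with PPT (log2 difference -5.44 ± 0.13 (SE), limma adjusted p = 4.92e-10) and 82.6 and 77.0 against 59.1 and 48.2 with oil. Sult3a2 was 3845 and 3394 against 51.4 and 52.2, at least 61.3-fold lower in ERKO (log2 difference -5.74), and the related Sult3a1 was 6969.9 and 6153 against 242 and 265 (-4.61). Sult3a1 was also lower with oil (-1.34), and its deficit was larger with PPT (difference of the differences -3.27, limma adjusted p = 5.77e-07).

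Sult2a3, another cytosolic sulfotransferase, behaved differently. Its intensity was 11330.3 and 8975 in wild type and 159 and 225 in ERKO with PPT (log2 difference -5.62 ± 0.17 (SE), limma adjusted p = 2.1e-09), and 51281 and 43095 against 166 and 180.3 with oil. It was far lower in ERKO under either treatment, and the oil deficit (-7.96) was the larger one, since the wild-type level was lower with PPT than with oil. A1bg, a secreted plasma protein gene that is higher in female mouse liver, was 2712 and 2762 in wild type and 63.8 and 51.2 in ERKO with PPT (log2 difference -5.23 ± 0.12 (SE), limma adjusted p = 4.92e-10), but 1058 and 1026 and 1986 and 1777 with oil, where ERKO was the higher group (0.84, limma adjusted p = 0.00396). The female-biased P450 Cyp3a16 was 1896 and 1629 against 37.2 and 14.2 with PPT, at least 29.9-fold lower in ERKO, and the exonuclease gene Trex2 was 2317 and 2310.2 against 54.7 and 59.99 (-4.99). Prtn3, which encodes a serine protease of neutrophil granules, was 3634 and 3575 against 138 and 133 (log2 difference -4.58 ± 0.20 (SE), limma adjusted p = 2.96e-08); Eci3 (-5.27), Myo15b (-4.76, at least 28.0-fold) and Pcp4l1 (-4.50) complete the 12 named by size. Of these 12, 5 were also lower and 2 higher in ERKO with oil (the oil call of Cyp3a16 was lost without either wild-type oil array, that of Sult3a2 without any 1 of the 8 arrays but ERKO oil replicate 1), and for all 12 the PPT and oil differences differed (interaction called).

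Among the 12 genes with the largest excess in ERKO, 11 were dim on both wild-type PPT arrays and 8 of the 12 were dim in both oil groups too. Several belong to squamous epithelium or muscle. Serpinb3a, an epithelial serpin, was 12.6 and 13.5 in wild type and 6018 and 6818 in ERKO, at least 115-fold higher (log2 difference 7.79 ± 0.14 (SE), limma adjusted p = 1.26e-10). Serpinb12 (at least 96.5-fold), Rptn (59.9), Krtdap (52.1) and Krt13 (42.4), genes of keratinized or stratified epithelium, and Reg3b (49.0), an epithelial lectin, were higher in ERKO by the same measure. The muscle genes were Smpx, 30.2 and 24.1 against 6012 and 6690.0, fast troponin C (Tnnc2), 55.3 and 58.3 against 6499.5 and 5499, and the muscle cytochrome oxidase subunit Cox8b (at least 38.2-fold).

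The remaining 3 are liver genes. The related Cyp4a12a and Cyp4a12b had similar means (4652 and 4137 in ERKO with PPT, 502.6 and 410.1 in ERKO with oil). Whether their probe sets share signal was not tested. Cyp4a12a and Cyp4a12b, male-biased fatty acid hydroxylases, were higher in ERKO under both treatments: Cyp4a12a was 10.7 and 5.96 against 4589 and 4715 with PPT, at least 83.2-fold higher (log2 difference 7.59 ± 0.17 (SE), limma adjusted p = 4.65e-10) and 30.2 and 13.9 against 525 and 479.9 with oil (3.80), and Cyp4a12b was at least 74.0-fold higher with PPT. Cyp7a1, whose enzyme limits the rate at which bile acids are made, was 20.8 and 22.6 in wild type and 1905 and 1865 in ERKO with PPT, at least 33.7-fold higher (log2 difference 5.66 ± 0.087 (SE), limma adjusted p = 5.08e-11). With oil it was bright in both genotypes, 2623 and 2554 against 4177 and 3922 (0.64), so of these 4 groups it was dim only in wild type with PPT. Of the study's 6 groups, 79 genes were bright in ERKO with PPT alone, 6 of them in the muscle list and 4 in the squamous and airway list, and 70 in wild type with PPT alone, among them Slc34a2 and Cidec. Such genes passed the intensity filter through that group and had to differ, so their directions support nothing.

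Genes known to respond to oestrogen in liver were mostly lower in ERKO. Of 17 measured, 12 were lower and 2 higher with PPT, with a median of -1.505; 2 were lower (5 without ERKO oil replicate 1) and 2 higher with oil. This list and those below were compiled with earlier results of these data known, so their direction is a description. Their counts of called members stand beside the 34.3% called over all genes with PPT and 5.23% with oil. Slc34a2, among the 12 lower with PPT, was bright in wild type with PPT alone and so had to differ. The difference between treatments was called for the same number of members, 12 lower and 2 higher. Lifr, the leukaemia inhibitory factor receptor, was 11507 and 11361 in wild type and 1467 and 1468 in ERKO (log2 difference -2.95 ± 0.083 (SE), limma adjusted p = 1.34e-09). Cyp17a1, a steroid hydroxylase, differed by -3.84, the transcription factor Myc by -2.04 (at least 4.01-fold), cyclin D1 (Ccnd1) by -1.505 and angiotensinogen (Agt) by -1.06. Each was lower on both ERKO arrays than on both wild-type arrays. The corticosteroid carrier Serpina6 was higher in ERKO, 465 and 417 against 2217 and 2289 (log2 difference 2.31 ± 0.094 (SE), limma adjusted p = 2.23e-08), as was Igf1 (0.58). The cofactor gene Nrip1 (0.14), Ctsd (0.20) and Gper1 (-0.18) were not called, except Ctsd, which was called higher without either ERKO oil array, after quantile normalization and with an intensity trend; Greb1, Pgr and Esr2 were below the intensity filter.

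Genes of the secretory pathway were mostly lower in ERKO with PPT. In the endoplasmic reticulum (ER) the unfolded protein response raises chaperones, folding enzymes and degradation factors, in part through an ER stress response element, CCAAT, then 9 of any base, then CCACG, bound by ATF6 and related factors. Of 20 such genes measured, 18 were lower and 0 higher in ERKO with PPT (limma; 0 higher also at an unadjusted p under 0.05), median -0.73. With oil the same list stood 10 higher and 1 lower, median 0.32. The difference between treatments was called for 18, each towards lower values, whichever array was left out; 9 genes were called in opposite ways under PPT and oil, a number that fell to 4, like the 10 higher with oil, when either wild-type oil array was left out.

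Herpud1, an ER degradation factor, was 3896 and 4093 in wild type and 856 and 843 in ERKO with PPT (log2 difference -2.21 ± 0.11 (SE), limma adjusted p = 7.25e-08), and 1750.3 and 1750.1 against 1898 and 1543 with oil. Hspa5 (BiP), the main ER chaperone, was 9712 and 9527 against 5125 and 5296 with PPT (log2 difference -0.88 ± 0.085 (SE), limma adjusted p = 1.89e-05) and 3965 and 3892 against 6553 and 5894 with oil (0.66). Wild type with PPT was the highest of these 4 groups for both genes, with no overlap between genotypes under PPT. The sums of the 20 intensities were 72685 and 71303 in wild type and 43554 and 43479 in ERKO with PPT, and 34739 to 46062 on the 8 remaining arrays, which enclose the ERKO PPT values. Syvn1, a ubiquitin ligase of ER degradation (-1.92), the co-chaperone Dnajb9 (-1.81), Creld2 (-1.66), calreticulin (Calr, -0.89) and the transcription factor Xbp1 (-0.72) were also lower. Derl3 (-0.11) and Edem1 (-0.099) were not called.

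The 3 promoters below belong to chaperone-list members that carried an exact ER stress element and had the largest differences, and show where it lies. They are RefSeq sequences of build GRCm38.p6, 250 bases before to 50 after the annotated start, read 5′ to 3′ along the gene, with the element in capitals.
Syvn1 chr19:6046326-6046625 +: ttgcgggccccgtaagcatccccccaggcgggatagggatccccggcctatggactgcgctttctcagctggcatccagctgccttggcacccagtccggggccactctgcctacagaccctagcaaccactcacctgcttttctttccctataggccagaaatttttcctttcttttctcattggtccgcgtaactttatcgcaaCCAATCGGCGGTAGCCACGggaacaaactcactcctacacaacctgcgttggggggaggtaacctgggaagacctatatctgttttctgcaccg
Creld2 chr15:88819396-88819695 +: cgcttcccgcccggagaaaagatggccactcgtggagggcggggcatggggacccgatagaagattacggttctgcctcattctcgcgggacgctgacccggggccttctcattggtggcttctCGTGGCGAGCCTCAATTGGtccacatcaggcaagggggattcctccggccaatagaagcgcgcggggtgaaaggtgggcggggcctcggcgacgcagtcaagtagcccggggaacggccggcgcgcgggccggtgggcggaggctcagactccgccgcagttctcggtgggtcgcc
Calr chr8:84846882-84847181 -: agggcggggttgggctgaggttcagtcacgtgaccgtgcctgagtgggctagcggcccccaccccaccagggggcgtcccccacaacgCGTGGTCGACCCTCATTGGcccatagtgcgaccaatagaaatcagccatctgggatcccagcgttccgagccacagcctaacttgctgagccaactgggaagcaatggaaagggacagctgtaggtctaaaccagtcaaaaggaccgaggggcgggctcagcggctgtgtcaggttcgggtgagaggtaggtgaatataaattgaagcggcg
The element began 44 bases before the start on the gene's strand in Syvn1, and 126 and 162 bases before it, on the opposite strand, in Creld2 and Calr.

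Searched on both strands, the element occurred in 30 of 22862 promoters of genes with 1 promoter (0.131%) and in 9 of the 18 chaperone genes with 1 promoter (50%): Syvn1, Creld2, Calr, Hspa5, Hsp90b1, Dnajc3, Canx, Pdia6 and Derl3. Of these 9, 8 were lower in ERKO with PPT and Derl3 was not called; without wild-type PPT replicate 1 or ERKO PPT replicate 2 the calls of Canx and Pdia6 were lost, and that of Pdia6 also without wild-type PPT replicate 2. Among tested genes with 1 promoter it was found in 15 of 8968 (0.167%). It was in 11 of 1814 called lower (0.606%) and 1 of 1270 called higher (0.0787%). Of the 11, 8 are the chaperone-list genes named above, so that share rests mostly on the list. The palindromic oestrogen response element, GGTCA, then 3 of any base, then TGACC, was in 15 of 22862 promoters (0.0656%), in 0 of the 8 oestrogen-responsive genes with 1 promoter, in 0 of 1814 called lower and in 1 of 1270 called higher. A match describes letters in a window of 300 bases, not a bound site.

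Genes for protein translocation, N-glycosylation and vesicle export from the ER moved with the chaperones: 16 of 23 were lower and 0 higher with PPT (limma; 0 higher at an unadjusted p under 0.05), median -0.63, against 3 higher and 0 lower with oil (9 and 0 unadjusted). The COPII coat genes Sec24d and Sec23b were 535 and 530.3 against 204 and 175 (log2 difference -1.42 ± 0.11 (SE), limma adjusted p = 3.8e-06) and 1179 and 1178 against 472 and 422 (log2 difference -1.37 ± 0.085 (SE), limma adjusted p = 6.08e-07), and the translocon subunit Sec61a1 differed by -1.17. Sec61b (0.036) and Ssr4 (0.16) were not called. Targets of the amino acid stress factor ATF4 were mixed, 8 of 16 lower and 3 higher (1 without wild-type PPT replicate 1). Atf3, among the 8, was bright in wild type with PPT alone and so had to differ once it passed the filter. Atf3 (-1.35, at least 2.39-fold), Trib3 (-1.10) and Ddit4 (-1.002) were lower, while Cth, which makes cysteine, was higher, 2372 and 2466 against 7853 and 7743 (log2 difference 1.68 ± 0.10 (SE), limma adjusted p = 4.18e-07). Asparagine synthetase (Asns) stood at 139.7 and 123 against 133 and 124 with PPT (-0.021, not called) and 33.2 and 33.3 against 204 and 158 with oil (1.99, limma adjusted p = 6.16e-05).

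Cholesterol synthesis was higher in ERKO across nearly all of the measured enzymes. Of 17 enzymes measured, 16 were higher and 0 lower with PPT (limma; 1 lower at an unadjusted p under 0.05), median 1.22, against 2 higher (0 without either wild-type oil array) and 0 lower with oil (7 and 0 unadjusted); leaving out any 1 array kept 15 or 16 higher with PPT. In the mevalonate arm, Pmvk was 161 and 161 in wild type and 584 and 541 in ERKO (log2 difference 1.71 ± 0.13 (SE), limma adjusted p = 2.34e-06), and Fdps, which makes farnesyl diphosphate, was 1173 and 1184 against 3686 and 3769 (log2 difference 1.65 ± 0.10 (SE), limma adjusted p = 6.32e-07). In the sterol arm, Nsdhl was 295 and 304 against 1393 and 1376 (log2 difference 2.15 ± 0.082 (SE), limma adjusted p = 1.21e-08), Dhcr7, the last step of 1 branch, differed by 1.55, squalene synthase (Fdft1) by 1.46 and squalene epoxidase (Sqle) by 1.05. For each of these genes both ERKO arrays lay above both wild-type arrays.

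The exception was Hmgcs1, which makes HMG-CoA at the head of the pathway, with 4728 and 4584 in wild type and 3854 and 4044 in ERKO (log2 difference -0.24 ± 0.087 (SE), limma adjusted p = 0.061), so its values leaned the other way without being called; it was called lower without either ERKO oil array (limma adjusted p = 0.0201) and under 6 other settings. Summed intensities of the 17 genes were 20510.3 and 19922 in wild type with PPT, the lowest of the 12 arrays, and 40398 and 41563 in ERKO, within the oil values of both genotypes (39266 and 40349.7 in wild type, 48900.0 and 42401 in ERKO). SREBP-2, the main factor for these genes, binds sterol response elements, and the exact letters TCACNCCAC were in 272 of 22862 promoters (1.19%) and in 1 of the 12 pathway genes with 1 promoter. That gene was Hmgcs1, and its promoter is shown with the element in capitals (GRCm38.p6, as above).
Hmgcs1 chr13:119690101-119690400 +: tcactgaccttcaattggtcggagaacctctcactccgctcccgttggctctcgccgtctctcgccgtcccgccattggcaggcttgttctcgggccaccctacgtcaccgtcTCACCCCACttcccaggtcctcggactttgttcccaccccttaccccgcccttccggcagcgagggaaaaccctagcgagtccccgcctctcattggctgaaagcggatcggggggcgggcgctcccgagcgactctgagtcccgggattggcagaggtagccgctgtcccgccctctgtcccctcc
The element began 137 bases before the start of Hmgcs1, on the gene's strand.

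The regulators split. Insig1, a sterol-induced retention protein and a target of SREBP-2, was higher in ERKO, 1449.9 and 1585 against 5271 and 5606 (log2 difference 1.83 ± 0.10 (SE), limma adjusted p = 2.65e-07). Insig2, its paralogue, was lower, 18266 and 17203 against 5385 and 5280.5 (log2 difference -1.73 ± 0.085 (SE), limma adjusted p = 9.01e-08). The order of the paralogues was thus opposite, with no overlap between genotypes for either. Of 11 regulators of the SREBP and LXR systems, 5 were higher and 2 lower, including Stard4 (0.95), the carbohydrate-responsive factor Mlxipl (0.81), Mylip (0.74) and Srebf1 (0.57) on the higher side and the cholesterol exporter Abca1 (-0.47) on the lower side. The Abca1 call was lost without wild-type PPT replicate 2 or ERKO PPT replicate 2 (limma adjusted p = 0.0566 and 0.0503), and Srebf2 was not called (-0.090).

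Fatty acid synthesis genes were more often higher: 11 of 18 higher and 2 lower with PPT, median 0.40, and 2 in each direction with oil (5 lower without ERKO oil replicate 1). Elovl3, a male-biased elongase, was 1.05 and 0.180 in wild type and 1689.8 and 1597 in ERKO, at least 29.4-fold higher (log2 difference 6.64 ± 0.19 (SE), limma adjusted p = 1.64e-09). Acss2, which makes acetyl-CoA from acetate, was 192 and 209 against 1522 and 1454 (log2 difference 2.79 ± 0.086 (SE), limma adjusted p = 2.44e-09), and Acly (1.22), Scd1 (1.18), Fads1 (1.08) and Acacb (1.07) were higher as well. Fatty acid synthase itself was not called, 337 and 367 against 303 and 286 (-0.24). Thrsp, a lipogenic factor, was lower with PPT (-0.74) and higher with oil (1.03).

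Triglyceride storage and turnover genes went both ways, 10 of 20 lower and 7 higher, median -0.19. Cidec, which enlarges lipid droplets, was 519 and 461 in wild type and 35.3 and 34.4 in ERKO, at least 8.30-fold lower (log2 difference -3.31 ± 0.14 (SE), limma adjusted p = 3.11e-08). It was bright in wild type with PPT alone and so had to differ once it passed the filter. The monoglyceride lipase Mgll (-1.82), the acyltransferase Dgat2 (-1.79), the droplet coat gene Plin2 (-0.58) and Mttp (-0.74), which loads lipid onto apolipoprotein B, were lower. Lpin1, a phosphatidate phosphatase, was higher (1.49). Dgat2 was 3597 and 3687 against 965 and 1122, without overlap.

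Fatty acid oxidation genes were divided, 8 of 28 lower and 7 higher (53.6% called, against 34.3% over all genes). Their median was 0.029, and -0.019 after median centring. Fewer were higher without wild-type PPT replicate 1 or ERKO PPT replicate 1. Ehhadh, a peroxisomal enzyme, was 10701 and 9702 in wild type and 831 and 848 in ERKO (log2 difference -3.58 ± 0.093 (SE), limma adjusted p = 7.53e-10), against 1934 and 1889 and 1835 and 1635 with oil. The fasting-related factor Creb3l3 (-1.51) and Cpt1a (-0.61), which admits fatty acids to mitochondria, were lower, and the coactivator Ppargc1a (1.18, at least 2.52-fold) and Ppara (0.42) were higher. The classical PPAR-alpha targets Cyp4a10 (0.095) and Cyp4a14 (-0.023) were not called. Of 16 apolipoprotein and lipoprotein genes, 5 were higher (3 without wild-type PPT replicate 1, 2 without wild-type or ERKO PPT replicate 2) and 2 lower. That is 43.8% called, against 34.3% over all genes. Apoa1 was higher (0.85); Apoa4 (-1.96) and the HDL receptor Scarb1 (-0.80) were lower; Apob (0.11) and Apoe (-0.10) were not called.

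Of 12 bile acid synthesis genes, 4 were higher and 4 lower in ERKO with PPT. Beside Cyp7a1, the classical arm's Cyp8b1, which sets the share of cholic acid, was 15.99 and 16.8 in wild type and 489 and 473 in ERKO with PPT, at least 8.61-fold higher (log2 difference 3.94 ± 0.10 (SE), limma adjusted p = 7.53e-10). With oil Cyp8b1 was 582 and 606 against 418 and 354 and lower in ERKO (-0.61), so the order of the genotypes turned; the oil call of Cyp8b1 was lost without wild-type oil replicate 1 or 2 (limma adjusted p = 0.0647 and 0.0919). In the alternative arm, Cyp27a1 was 2839 and 2861 against 1453 and 1347 with PPT (log2 difference -1.02 ± 0.085 (SE), limma adjusted p = 5.8e-06) and Cyp7b1 was 3681 and 3689 against 1259 and 1216 (log2 difference -1.56 ± 0.098 (SE), limma adjusted p = 6.42e-07), both lower in ERKO.

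Transporters and regulators of bile acids were 9 of 18 higher and 5 lower. The uptake carriers Slco1a1, 456 and 434 against 3247 and 3301 (log2 difference 2.84 ± 0.15 (SE), limma adjusted p = 1.55e-07), and Slco1a4 (2.08) were higher in ERKO, and Slco1b2 was lower (-0.55). The bile acid receptor FXR (Nr1h4) was higher (0.96), while Nr0b2 (SHP), a repressor of Cyp7a1, was lower, 1298 and 1339 against 471 and 483 (log2 difference -1.44 ± 0.15 (SE), limma adjusted p = 4.03e-05). The sinusoidal exporter Abcc3 was lower (-1.58), and Slc10a1 was not called (0.097). With oil, 0 of the 18 were higher (5 at an unadjusted limma p under 0.05) and 1, Abcg8, was lower (4 without ERKO oil replicate 1).

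**Figure D3:**
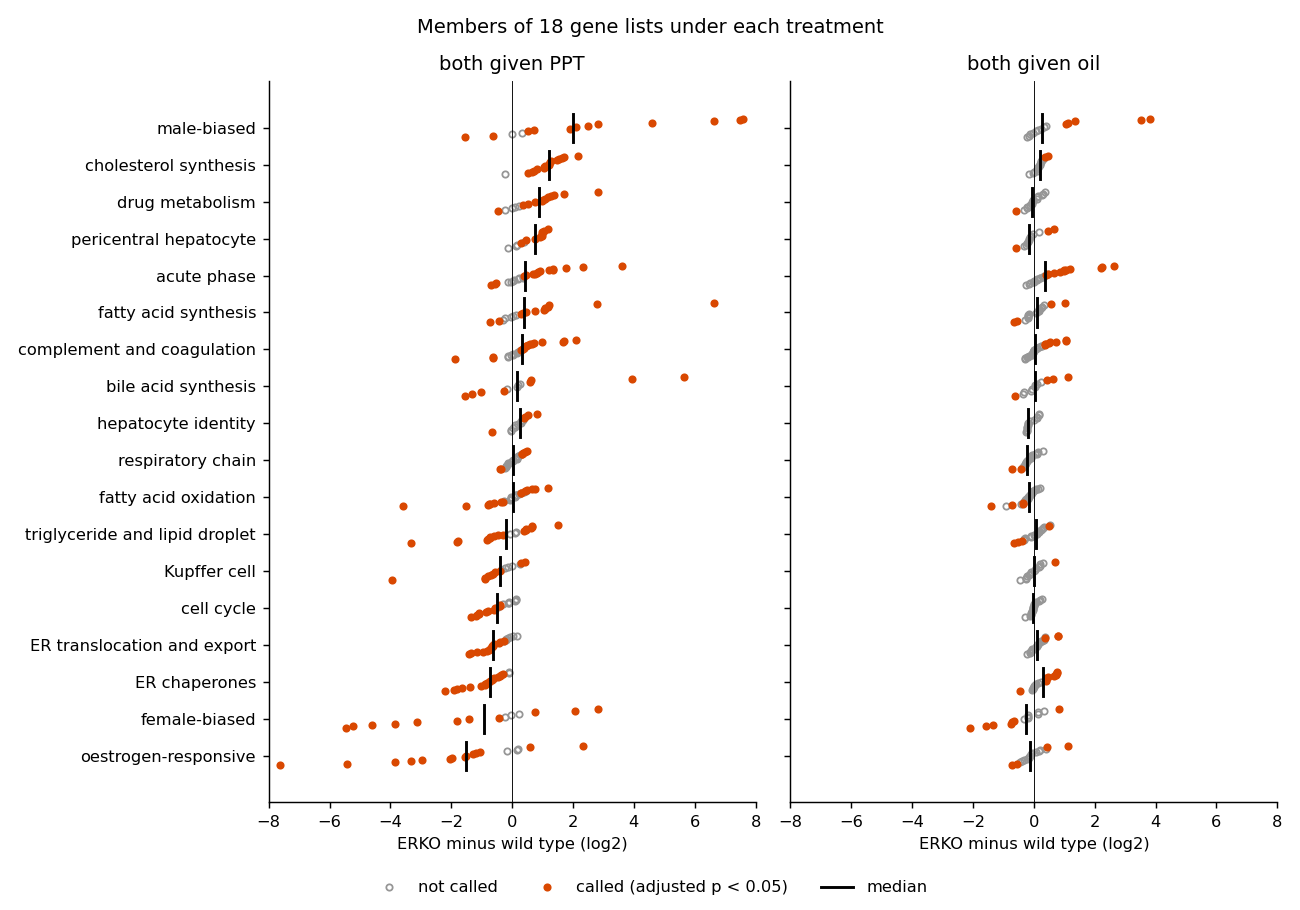
Log2 differences (ERKO minus wild type) of the measured members of 18 gene lists under PPT (left) and oil (right); filled points were called and the bar is the list's median. Under PPT the cholesterol synthesis genes lie to the higher side and the ER chaperones to the lower side, and under oil the chaperones' median is above 0.

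Genes with sex-biased expression in mouse liver differed in both directions. Of 14 male-biased genes, 10 were higher and 2 lower with PPT, median 1.99; 5 were higher and 0 lower with oil (limma; 6 and 0 at an unadjusted p under 0.05). Hsd3b5, a male-specific steroid dehydrogenase, was 8.10 and 3.22 in wild type and 512 and 486 in ERKO, at least 8.93-fold higher (log2 difference 4.58 ± 0.27 (SE), limma adjusted p = 4.15e-07), but 12.9 and 4.89 against 18.2 and 1.11 with oil. It was bright in ERKO with PPT alone, so it had to differ once it passed the filter and its direction supports nothing. Cyp2d9 was higher under both (1.90 with PPT, 1.35 with oil), as was the complement gene C6 (2.09 and 1.06). Of 14 female-biased genes, 8 were lower and 3 higher, median -0.93 (-0.83 with dim genes taken at their bound). Acot3, among the 3 higher, was dim in both PPT groups (means 19.1 in wild type and 43.4 in ERKO). With oil 6 were lower, fewer without either wild-type oil array, and 1 was higher. Cyp2b13 was lower under both (-3.11 and -1.58), likewise the oestrogen sulfotransferase Sult1e1 (-1.83, at least 3.92-fold, and -0.75, the latter with a limma adjusted p of 0.0823 without wild-type oil replicate 2). Cyp2b10, which also responds to drugs through the receptor CAR, was higher with PPT, 87.4 and 84.3 against 673 and 722 (log2 difference 2.81 ± 0.092 (SE), limma adjusted p = 4.06e-09). Summed intensities of the female-biased genes were 28757 and 26449 in wild type with PPT and 5659.5 and 5779 in ERKO with PPT, lower than on any of the other 10 arrays.

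Growth hormone signalling itself was mixed, 4 of 14 higher (7 without either ERKO oil array) and 5 lower. Stat5a, a transducer of the hormone, was 482 and 465 against 127 and 103 (log2 difference -1.90 ± 0.12 (SE), limma adjusted p = 6.42e-07), and Stat5b (-0.96) and the feedback inhibitors Socs2 (-1.29) and Cish (-1.19, at least 2.05-fold) were lower too. The receptor Ghr was not called (0.075). Onecut1 (HNF6), a liver factor more active in females, was higher, 55.8 and 42.5 against 192 and 213, at least 3.62-fold (log2 difference 1.75 ± 0.12 (SE), limma adjusted p = 9.69e-07), and the binding protein gene Igfbp1 was lower (-2.44). Beside Akr1c18, Cyp17a1 and Sult1e1, steroid-converting enzymes showed 5 of 13 higher, with Hsd3b5 (bright in ERKO with PPT alone) among them, and 6 lower. Hsd3b2 was 97.5 and 49.4 against 2337 and 2408 (log2 difference 4.79 ± 0.20 (SE), limma adjusted p = 2.62e-08). Hsd3b family members are close in sequence, so their probe sets may share signal.

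Drug-metabolising genes were 11 of 16 higher and 1 lower in ERKO with PPT, median 0.87, and 0 higher (3 at an unadjusted limma p under 0.05) and 1 lower with oil (5 lower without ERKO oil replicate 1). Cyp3a25 was 3678 and 2938 in wild type and 10567 and 10681 in ERKO (log2 difference 1.69 ± 0.13 (SE), limma adjusted p = 3.89e-06), with Aldh1a1 (1.36) and Cyp2c54 (1.27) also higher; Cyp3a11 was not called (0.0068). The xenobiotic receptor PXR (Nr1i2) was lower (-0.47), a call lost without ERKO PPT replicate 2 (limma adjusted p = 0.0546). Pericentral genes, which mark hepatocytes around the central vein, were 9 of 13 higher and 0 lower (0 lower unadjusted), median 0.74, including glutamine synthetase (Glul, 1408 and 1336 against 3021 and 2646, 1.03) and Cyp2e1 (1.19). In whole liver, more cells of a zone or type and more RNA per cell cannot be told apart. Urea cycle and amino acid genes, mostly periportal, were 8 of 14 higher and 3 lower: Cps1 (1.38) and Tdo2 (1.09) higher, Asl (-0.83) and Arg1 (-0.72) lower. Glutathione genes were 7 of 16 in each direction, with transferases such as Gstm6 (1.76) and Gsta3 (1.01) higher and the factor Nfe2l2 (-1.19) and its targets Srxn1 (-1.14) and Hmox1 (-0.98) lower.

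The gluconeogenic pair was opposed: G6pc, the last step of glucose release, was 844 and 869.7 against 2583 and 2549.7 (log2 difference 1.56 ± 0.078 (SE), limma adjusted p = 1.13e-07), and Pck1, which makes phosphoenolpyruvate, was 5087 and 5031 against 1841 and 1838 (log2 difference -1.45 ± 0.10 (SE), limma adjusted p = 1.67e-06). Of 14 genes of glucose output and insulin signalling, 3 were higher and 4 lower (50% called, against 34.3% over all genes). Cell cycle genes were 12 of 20 lower and 0 higher with PPT, median -0.51; with oil 0 were called in either direction, and both counts of 0 held at an unadjusted limma p under 0.05. The mitotic kinase Cdk1 was 366 and 346 against 126 and 130.3 (log2 difference -1.37 ± 0.22 (SE), limma adjusted p = 0.000725), and the replication helicase genes Mcm3 (-1.19) and Mcm5 (-1.15), Top2a (-1.10) and cyclin A2 (Ccna2, -1.09) were lower. Ccnb2 (0.12) and Cdc20 (0.11), genes of mitosis, were not called. Heat shock and immediate early genes were 6 of 12 lower (2 without wild-type PPT replicate 1, 3 without wild-type or ERKO PPT replicate 2) and 1 higher, led by Hsph1 (-1.48) and Jun (-1.08). Nuclear-encoded respiratory chain genes were near the background, 5 of 22 higher and 2 lower (31.8% called, against 34.3% over all genes). With any of the 4 PPT arrays left out, 1 or 2 of them were higher. Clock genes were below the background, 3 of 17 higher (5 without either ERKO oil array) and 1 lower (23.5% called). The clock activator Arntl was higher with PPT (0.75) and lower with oil (-1.13).

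Acute phase genes were 13 of 24 higher and 3 lower in ERKO with PPT, median 0.42, and 11 higher and 0 lower (15 and 1 at an unadjusted limma p under 0.05) with oil, median 0.38. Saa3 was 875 and 951 in wild type and 10862 and 11592 in ERKO with PPT (log2 difference 3.60 ± 0.092 (SE), limma adjusted p = 7.35e-10), above its oil difference of 0.67. The metallothioneins Mt1 (2.34) and Mt2 (1.77) were higher with PPT. Saa1 and the siderophore-binding Lcn2 had larger differences with oil (2.20 and 2.63) than with PPT (0.75 and 1.20), with the difference between treatments called (limma adjusted p = 0.000262 and 2.02e-05). Neutrophil markers had 7 of 10 higher (4 without wild-type oil replicate 2) and 0 lower (0 unadjusted) with oil. With PPT, 5 were higher and 1 lower. Camp and Ltf were bright in ERKO with oil alone, so their direction with oil supports nothing. Ltf was also among the 5 higher with PPT, though dim in both PPT groups (means 30.15 in wild type and 45.42 in ERKO). The list's PPT median was 0.599, and 0.208 with dim genes taken at their bound. S100a8 was 140.2 and 161 against 458 and 465 with PPT and 42.6 and 37.2 against 793 and 661 with oil. The 10 marker intensities summed to 4345 and 4246 in wild type and 1675 and 1574 in ERKO with PPT, a sum dominated by Prtn3 in wild type. The acute phase genes summed the other way with PPT, 146875.5 and 138130 in wild type and 207434 and 211931 in ERKO. Mpo and Ctsg were below the filter. The part of neutrophils in the acute phase differences was not tested.

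Complement and coagulation genes were 14 of 28 higher (9 without wild-type or ERKO PPT replicate 2) and 3 lower. C6 and C9 of the terminal complex (2.09 and 1.70) and the lectin Mbl1 (1.67) were higher, and coagulation factor XI (F11) was lower, 1716 and 1753 against 476 and 437 (log2 difference -1.89 ± 0.10 (SE), limma adjusted p = 2.07e-07). Interferon-induced genes were 6 of 16 higher and 1 lower, 43.8% called against 34.3% over all genes. The 6 fell to 4 without wild-type PPT replicate 1 or either ERKO PPT array. Without either ERKO oil array 3 were lower. The largest were Ifit1 (1.47) and Mx2 (1.04, at least 1.35-fold).

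Kupffer cell and macrophage genes were 8 of 15 lower and 2 higher in ERKO with PPT, median -0.41. The scavenger receptor gene Marco was 969 and 987 in wild type and 49.0 and 46.3 in ERKO, at least 16.6-fold lower (log2 difference -3.96 ± 0.16 (SE), limma adjusted p = 2.42e-08). Cd68 (-0.89) and Timd4 (-0.90) were lower, while Clec4f, which is specific to Kupffer cells, was 1001 and 1003 against 1017 and 982 (-0.0039, not called). Stellate cell and fibroblast genes were 8 of 15 higher (5 without any 1 of the 4 PPT arrays) and 1 lower. Lrat, which esterifies retinol for storage, was 85.2 and 103 against 498 and 505 (log2 difference 2.24 ± 0.10 (SE), limma adjusted p = 5.47e-08). The contractile genes Des (1.69, at least 3.69-fold) and Acta2 (0.99), also expressed in muscle, were higher too. Skeletal muscle transcripts were high on the ERKO PPT arrays, and their part in these differences was not tested. Col1a1 (0.14) and Col3a1 (0.18) were not called. Among 12 sinusoidal endothelial genes, 3 were higher, led by Clec4g (1.62), and 4 lower (1 without wild-type PPT replicate 1 or ERKO PPT replicate 2, 2 without wild-type PPT replicate 2), led by Lyve1 (-1.20), which was lower with oil too (-1.29; limma adjusted p = 0.118 and 0.0954 without wild-type oil replicate 1 or 2). Lymphocyte genes (0 higher and 2 lower of 10), MHC class II genes (1 and 0 of 7), red cell precursor genes (1 and 1 of 4), bile duct genes (0 and 0 of 4), adipocyte genes (2 and 0 of 4) and pancreatic acinar genes (2 and 1 of 17) are given as counts against the 34.3% called over all genes, and both adipocyte calls were of genes bright in ERKO with PPT alone; the lymphocyte calls fell to 0 without wild-type PPT replicate 1 or 2 or ERKO PPT replicate 1, and the 2 acinar calls without any 1 of the 4 PPT arrays.

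The 12 measured skeletal muscle genes were called higher in ERKO with PPT, from 0.90, at least 1.64-fold, for Actn3 to 6.36 for Tnnc2, but 6 of them were bright in ERKO with PPT alone and so had to differ once they passed the filter; the count is a description. No such gene (0) was called with oil (limma; 0 at an unadjusted p under 0.05), and 7 of the 12 were dim on the wild-type PPT arrays and 0 on the ERKO PPT arrays. Creatine kinase (Ckm) was 89.1 and 77.7 against 1116 and 1019 (log2 difference 3.45 ± 0.095 (SE), limma adjusted p = 1.24e-09). Of 12 squamous and airway genes, 5 were higher and 1 lower, and 4 of the 5 were likewise bright in ERKO with PPT alone. The surfactant gene Sftpc was 18.6 and 15.3 against 1903 and 1741, at least 32.6-fold higher (log2 difference 5.80 ± 0.14 (SE), limma adjusted p = 5.37e-10) and the airway secretory gene Scgb1a1 was 6.68 and 9.19 against 1162 and 1134, at least 20.6-fold higher (log2 difference 5.61 ± 0.10 (SE), limma adjusted p = 1.26e-10), both dim in wild type. Krt4, a keratin of stratified epithelium, was the lower one, 3308 and 3210.1 in wild type and 451 and 435 in ERKO (log2 difference -2.83 ± 0.26 (SE), limma adjusted p = 1.19e-05), and Krt5 (0.078) and Krt14 (0.059), keratins of basal cells, were not called. So the ERKO PPT arrays were bright for muscle, airway and squamous genes, and the wild-type PPT arrays for Krt4.

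Genes called in opposite directions under the 2 treatments included Dio1, which activates thyroid hormone, with 396 and 357 in wild type and 1203 and 1249 in ERKO with PPT and 1699 and 1606 against 680.0 and 519.8 with oil (1.66 and -1.45; difference of the differences 3.11, limma adjusted p = 8.12e-07). The transferrin receptor gene Tfrc was 1385 and 1335 against 612 and 613 with PPT and 540.2 and 555 against 1289 and 1197 with oil (-1.13 and 1.16). Cyp7b1 (-1.56 and 1.12), Coq10b, of coenzyme Q function (-1.86 and 1.02), Prtn3 (-4.58 and 1.23) and Ogn, an extracellular matrix gene (0.90 and -0.92), also turned. In Dio1, Tfrc and Cyp7b1 the order of the genotypes turned between oil and PPT, with no overlap under either. The oil call of Prtn3 was lost without wild-type oil replicate 2 (limma adjusted p = 0.0698).

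Other genes differed the same way whatever the treatment, with the difference between treatments not called. Nat8, an acetyltransferase, was 18.7 and 1.22 in wild type and 771 and 704 in ERKO with PPT, at least 13.2-fold higher (log2 difference 4.95 ± 0.29 (SE), limma adjusted p = 3.47e-07), and averaged 17.2 against 487 with oil (3.95). The efflux pump Abcb1b (2.25 and 1.65), the platelet chemokine Ppbp (1.68 and 1.47) and Zfp488 (1.37 and 2.05) were higher under PPT and oil. Cyp2a22 (-1.70 and -2.03), Nrarp (-1.25 and -0.74), Sult5a1 (-1.19 and -0.79) and E-cadherin (Cdh1, -1.18 and -1.06) were lower under both. The oil calls of Nrarp and Sult5a1 were lost without either wild-type oil array or ERKO oil replicate 2, and that of Nrarp also without any PPT array (limma adjusted p up to 0.237 for Nrarp and 0.155 for Sult5a1). An interaction that was not called does not show that the differences were equal.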

How the data were processed

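Total RNA of whole liver was hybridised to Affymetrix Mouse Gene 1.0 ST arrays, per the labels, with RNA of 3 animals pooled on each of 12 arrays (6 groups of 2). The deposited intensities are linear and already on a common scale (array medians 77.5 to 85.3); background correction, probe summary and normalization are not given in the sources used here, and the authors judged change with Cyber-T and a fold minimum of 2, per the labels' protocols. Unknown background handling can compress the differences of dim genes.

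A pseudocount of 16 was added and log2 taken. Probe sets above their array's 40th percentile on at least 2 arrays were fitted with limma 3.58.1 (R 4.3.3; 6 group means, 6 residual degrees of freedom) and p-values adjusted by Benjamini-Hochberg. Log2 differences, and the counts of probe sets at least 2-fold, are on the log2(value + 16) scale, which understates change in dim genes. For single genes, a fold given as at least a value is a ratio of mean intensities. In it each array is taken as no less than its 40th percentile, without the pseudocount. GEO's platform annotation gave 1 symbol to 21780 probe sets, several to 1605 and none to 5430; only those with 1 were named. The comparison, with its members, and the gene lists and tests were chosen with earlier results of these data known.

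Genes were named by rule: Esr1; the 12 largest called, non-overlapping differences in each direction; up to 3 called members per list and direction, with other list members where a pathway is described; the 6 largest opposite calls; and the 4 largest calls shared with oil in each direction. Those other list members were chosen after their values were seen. On simulated data with 50 changed probe sets per size, the test recovered 80% of log2 changes of 1, 76% of -1, 34% of 0.5 and 18% of -0.5. All other simulated probe sets had equal genotypes, whereas 32.1% were called in the data. The adjusted p depends on that share, so these rates do not give the recovery in this comparison. Alternatives were other pseudocounts, filters, scalings, variance models and array sets. Sequences are from RefSeq (GRCm38.p6).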

Additional observations from a re-analysis of the deposited data

Results flagged for a closer look

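The ERKO minus wild-type difference itself changed between oil and PPT for 3310 of 13987 genes (23.7%). The test was of the difference (limma interaction term, Benjamini-Hochberg adjusted over 19119 probe sets). Listed here are 30 of these: Esr1 and the genes named above for the largest PPT differences or the largest opposite calls. All 152 genes called in opposite ways had the interaction called, so for the opposite calls this outcome followed from the selection. Selecting large PPT differences favours it too, so the list of 30 is a description. The values below are the PPT difference minus the oil difference in log2; many of these genes are dim in at least 1 of the groups compared, where the value depends on the pseudocount and gives neither a size nor an order. No explanation was tested for any of them.

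For the receptor gene Esr1 it was 0.46. Among genes higher in ERKO with PPT, the interaction was 7.59 for Serpinb3a, 7.46 for Serpinb12, 6.91 for Smpx, 6.82 for Krtdap, 6.75 for Reg3b, 6.59 for Rptn, 6.25 for Tnnc2, 5.35 for Cox8b and 5.17 for Krt13. These 9 are epithelial or muscle genes, and Reg3b was bright on both MOER PPT arrays too. Of the liver enzymes on that side, Cyp7a1 gave 5.01, Cyp4a12b 3.96 and Cyp4a12a 3.79.

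Among genes lower in ERKO with PPT, the interaction was -7.56 for Slc34a2, -6.07 for A1bg, -5.10 for Trex2, -4.98 for Akr1c18, -4.93 for Sult3a2, -4.84 for Myo15b, -4.58 for Eci3, -3.36 for Cyp3a16, -3.27 for Sult3a1 and -3.05 for Pcp4l1. Sult2a3 went against these, at 2.34, because its deficit was larger with oil.

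Genes called in opposite directions were Prtn3 at -5.81, Coq10b at -2.88, Cyp7b1 at -2.69 and Tfrc at -2.29, lower with PPT and higher with oil, and Dio1 at 3.11 and Ogn at 1.82, higher with PPT and lower with oil. With 2 arrays per group no array can be compared with several others of its group, so no test for a single deviating array was made.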

How the results depend on the processing

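Limits: with 2 arrays per group and pooled animals, spread between animals is unknown, and no array signal gives depth; signal over background limits dim genes, whose log2 differences depend on the pseudocount and are no bounds. Replicate numbers were not taken to pair arrays. Replicate deviations correlated between groups at -0.147 to 0.377, with 5 of 15 pairs over 0.1, and at -0.058 between the PPT groups, so some groups may share replicate structure. With a replicate block 6254 probe sets were called with PPT, 931 with oil and 4369 for the interaction.

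The PPT count stayed within 1.5 times its 6133 for the alternatives of pseudocount, filter, scaling and array set, leaving aside single arrays left out. Leaving out 1 array gave 4007 to 7921 with PPT, 230 to 6329 with oil and 2873 to 6735 for the interaction. With at least 2-fold as well, the 3 counts were 1149, 109 and 1290, and with a Cyber-T style rule 1147, 105 and 1266. The oil count of 957 was 552 with no filter, 1673 after quantile normalization, 1626 with an intensity trend and 367 with the 8 wild-type and ERKO arrays only. Median centring left 37.4% of PPT calls higher in place of 44.7%. No called difference of a gene examined under these alternatives reversed. The cause of these moves was not tested.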
